A study of Drosophila melanogaster with 31 samples.

Results

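The fourth chromosome of *Drosophila melanogaster* carried 75 of the 7520 H3K9me3 peaks in the deposited lists, 36 of 3497 in the Nxf2-KD list and 39 of 4023 in the Panx-KD list. Members were all peaks placed on chromosome 4 of the dm3 build, chosen by position alone. The peaks come from ovarian somatic cells (OSC), a line grown from follicle cells of the fly ovary, cultured at 26 degrees and transfected with siRNAs against Nxf2 or against Panx. Each knockdown (KD) had 2 samples of chromatin immunoprecipitated with an antibody to H3K9me3 and 1 input sample, among 31 samples in the series. Each knockdown is represented by a single list, merged over replicates per its name. No control-knockdown peak list was analysed here, so the lists are compared with each other and no gain or loss of the mark against undepleted cells is given.

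H3K9me3, trimethylation of lysine 9 of histone H3, marks silent chromatin and is bound by HP1 proteins. In OSC, the nuclear protein Piwi and its bound small RNAs direct this mark to transposable element insertions. Panx is needed for that step, and Nxf2, related to the export factors that carry RNA out of the nucleus, acts together with Panx. The fourth, or dot, chromosome is the smallest of the fly. It is a mosaic of repeat-rich heterochromatin and expressed genes, and in flies the methyltransferase Eggless (Setdb1) and the chromosome-specific protein POF act on it. The RefSeq Release 6 annotation lists 80 protein-coding genes on it. That annotation uses another build than the peaks, so peaks below are named by position and no gene is assigned to them.

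All values are descriptions. With 1 list per knockdown and a single chromosome 4, no test over samples could be made, and peaks of a list are not replicates because they share libraries. Intervals are exact 95% intervals (Poisson for counts, Clopper-Pearson for shares) and cover counting error only. They are too narrow where peaks cluster. Read depths are not in the lists and are unknown here. The score is the authors' peak-caller value for a single peak, used only within its own list.

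The fourth chromosome was richer in H3K9me3 peaks than the 5 large arms pooled and far poorer than the heterochromatin sequences pooled. In the Nxf2-KD list it held 28.3 peaks per Mb (interval 19.9 to 39.2), against 17.6 over arms 2L, 2R, 3L, 3R and X, a ratio of 1.61. In the Panx-KD list it held 30.7 peaks per Mb (21.8 to 42.0), against 21.0 over the arms, a ratio of 1.46. Without its first 100 kb, a stretch set apart after the positions were seen, the ratio to the whole arms was 1.17 in the Nxf2-KD list. It turned to 0.937 in the Panx-KD list. The arms kept their centromere ends in these ratios. Without 1.27 Mb at the centromere end of each, the arms held 12.3 and 14.5 peaks per Mb. Chromosome 4 without its first 100 kb held 20.5 and 19.7. The 6 heterochromatin sequences (2LHet, 2RHet, 3LHet, 3RHet, XHet and YHet) together held 150.0 and 163 peaks per Mb in the same order of lists. YHet alone held 48.6 (27.8 to 78.9) in each list, an interval that overlapped those of chromosome 4.

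The arms also differed among themselves. In the Nxf2-KD list the arms ran from 9.26 peaks per Mb on 3R through 15.8 on 2L, 18.7 on 3L and 22.9 on X to 23.5 on 2R. The interval of chromosome 4 overlapped those of 3L, X and 2R and lay above those of 2L and 3R. In the Panx-KD list X had 30.8 peaks per Mb, level with chromosome 4, and 2R had 27.4. Arms 3L, 2L and 3R had 20.5, 18.3 and 10.9 peaks per Mb there. The interval of chromosome 4 overlapped that of 3L as well and lay above those of 2L and 3R. Chromosome 4 therefore had more peaks per Mb than all 5 arms in the Nxf2-KD list and than 4 of the 5 in the Panx-KD list.

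Peaks covered 86185 bases of the fourth chromosome in the Nxf2-KD list and 84058 bases in the Panx-KD list. These are 6.79% and 6.62% of the 1.27 Mb up to its furthest peak end. The arms together were covered to 3.91% and 4.44%. The highest arm was 3L in the Nxf2-KD list, with 5.05%, and 2R in the Panx-KD list, with 5.79%. The heterochromatin sequences together were covered to 49.3% and 52.4%, although YHet alone stood at 4.20% and 4.27%, below chromosome 4. The covered share of the whole of chromosome 4 was thus above that of each arm in both lists, by 1.34-fold over 3L and by 1.14-fold over 2R where the margins were smallest. This order against whole arms rested on its first 100 kb. Without them the share was 4.07% in the Nxf2-KD list, below X (4.40%), 2R (5.01%) and 3L (5.05%). In the Panx-KD list it was 3.77%, below each arm except 3R (2.14%). The arms kept their centromere ends in this comparison. Without 1.27 Mb at the centromere end of each, the arms together were covered to 2.59% and 2.88%, below the trimmed chromosome 4 in both lists.

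**Figure D1:**
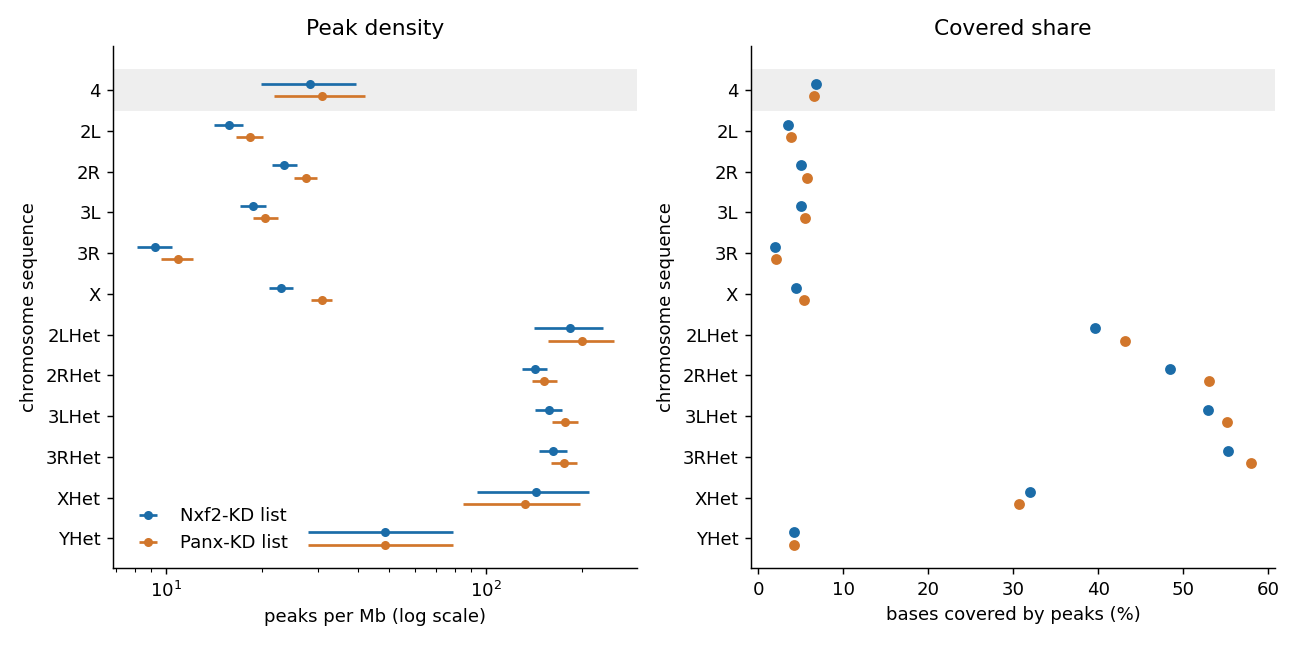
Peaks per Mb with exact Poisson intervals (left, log scale) and percent of bases covered by peaks (right) for each chromosome sequence, with Nxf2-KD in blue and Panx-KD in orange. Chromosome 4 (grey band) lies at 28.3 and 30.7 peaks per Mb, near X and 2R, and at 6.79% and 6.62% covered, above each arm and far below 5 of the 6 heterochromatin sequences.

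On chromosome 4 the lists covered nearly equal numbers of bases, with the Nxf2-KD list slightly ahead. The Panx-KD list was the longer of the lists, with 1.15 times the peaks and 1.10 times the covered bases of the Nxf2-KD list. On the arms its covered share was higher by 1.09-fold on 2L and 3L up to 1.24-fold on X. On the fourth chromosome it had 1.08 times the peaks but 0.975 times the covered bases. Only 2 of the 12 sequences, chromosome 4 and XHet, had fewer covered bases in the Panx-KD list. On chromosome 4 this turned on a single peak: without the Nxf2-KD peak at chr4:97001-102562, the Nxf2-KD list covered 80623 bases and the ratio was 1.04.

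Peaks were concentrated at the low-coordinate end of the chromosome, which is its centromere side. The first 100 kb held 12 of 36 Nxf2-KD peaks and 16 of 39 Panx-KD peaks. These bases were covered to 38.5% and 39.9%, and held 44.7% and 47.5% of all covered bases of the chromosome. The other 1.17 Mb held 20.5 peaks per Mb (13.1 to 30.5) and 19.7 peaks per Mb (12.5 to 29.5), covered to 4.07% and 3.77%. In this remainder the ratio of covered share to that of the whole arms was 1.04 in the Nxf2-KD list and 0.849 in the Panx-KD list. Such concentration was not particular to chromosome 4. Stretches as long as chromosome 4 at the centromere ends of the arms made up 6.35 of 118 Mb. These held 700 of 2077 Nxf2-KD arm peaks and 856 of 2479 Panx-KD arm peaks.

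Most 100 kb windows of chromosome 4 beyond the first held a peak, although long peak-free stretches lay among them. With windows numbered from base 1 and the first included, 10 of 13 held an Nxf2-KD peak and 11 of 13 a Panx-KD peak. On the 5 arms 46.3% and 47.8% of 1184 windows did, with X highest at 59.4% and 63.4%. The median window of chromosome 4 had 2 peaks in each list, and the median window of the arms had 0. Windows 4 and 6 were empty in both lists, and window 5 held a single Panx-KD peak. A second, lower rise covered windows 8 to 10, at 8.79%, 10.1% and 4.47% in the Nxf2-KD list and 7.04%, 9.97% and 4.20% in the Panx-KD list. Window 12 reached 8.68% and 10.05%.

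**Figure D2:**
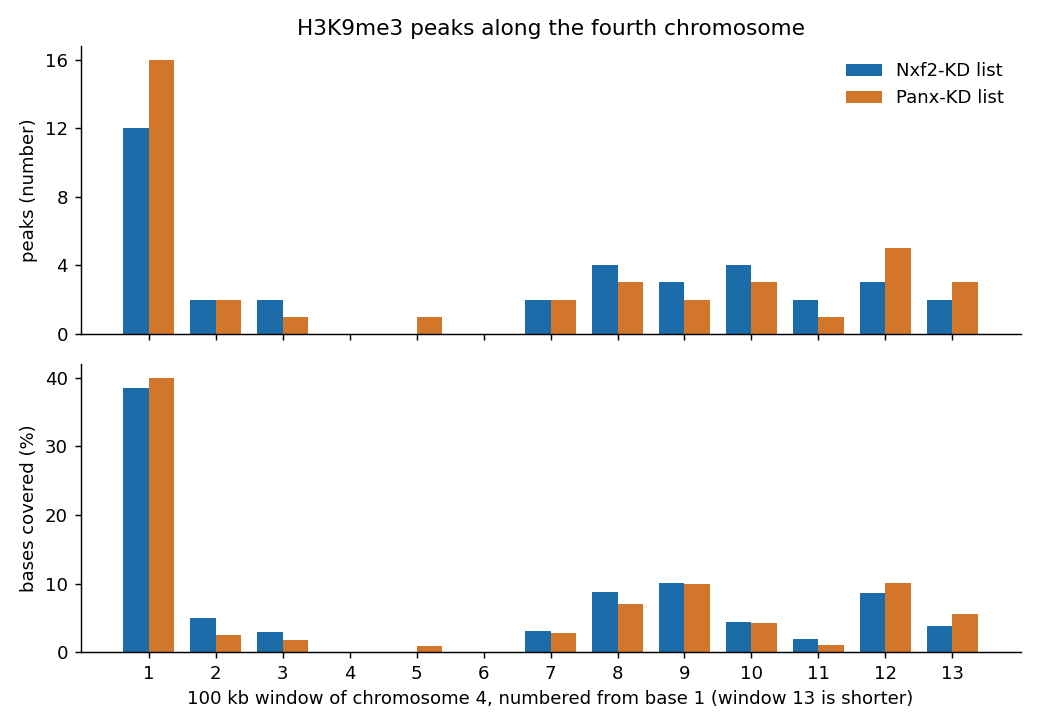
Number of peaks (top) and percent of bases covered (bottom) in each 100 kb window of chromosome 4, with Nxf2-KD in blue and Panx-KD in orange. Window 1 stands apart at 38.5% and 39.9% covered, windows 4 to 6 are nearly empty, and windows 8, 9 and 12 form the next highest group.

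The 5 longest stretches between peaks of either list made up 51.1% of the sequence up to the furthest peak end; any peak-free sequence beyond that end was not measured here. The longest, of 236114 bases, lay at chr4:228473-464586. It was followed by 158405 bases at chr4:465522-623926, so that between these positions a 935-base Panx-KD peak was the sole peak of either list. The other peak-free stretches were chr4:980211-1072089 (91879 bases), chr4:1082711-1169893 (87183 bases) and chr4:703933-779993 (76061 bases).

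Against the parts of the arms nearest to their centromeres, the fourth chromosome was poor in the mark, with 3R as the exception. Stretches of the same length at the centromere ends of the 5 arms held 110 and 135 peaks per Mb and were covered to 27.0% and 31.9%. Chromosome 4 had 0.251 and 0.207 times that covered share. The range ran from 51.3% and 58.7% on 3L to 6.45% and 6.62% on 3R. The 3R stretch held 27 Nxf2-KD and 31 Panx-KD peaks, close to the 36 and 39 of chromosome 4. The rest of the arms was covered to 2.59% and 2.88%, below the 4.07% and 3.77% of chromosome 4 without its first 100 kb. That first 100 kb, a shorter stretch than those of the arms, was covered to 38.5% and 39.9%. These shares were above the pooled shares of the arm ends.

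Widths and scores of the chromosome 4 peaks lay well within the range of the other chromosomes. The median width was 1715 bases in the Nxf2-KD list (quartiles 1151 and 2484) and 1649 bases in the Panx-KD list (963 and 1997). On the arms the medians were 1511 bases (1020 and 2611) and 1344 bases (892 and 2411), and on the heterochromatin sequences 2199 and 2003 bases. Widths ran from 628 to 9343 bases and from 600 to 17283 bases. The median differences from the arms were small beside the spread between quartiles.

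The median score on chromosome 4 was 119 in the Nxf2-KD list, against 117.5 on the arms and 164 on the heterochromatin sequences. In the Panx-KD list it was 151, against 127 on the arms and 196 on the heterochromatin sequences. At or above the median of their own list were 17 of 36 Nxf2-KD peaks (47.2%) and 20 of 39 Panx-KD peaks (51.3%), with 45.02% and 43.7% of arm peaks. Wider peaks had higher scores, with Spearman correlations between width and score of 0.865 over 36 peaks and 0.803 over 39, and of 0.796 and 0.820 over the arm peaks. Peaks 1000 to 2000 bases wide, 17 in each list, had median scores of 102 (Nxf2-KD; arms 102) and 172 (Panx-KD; arms 126).

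**Figure D3:**
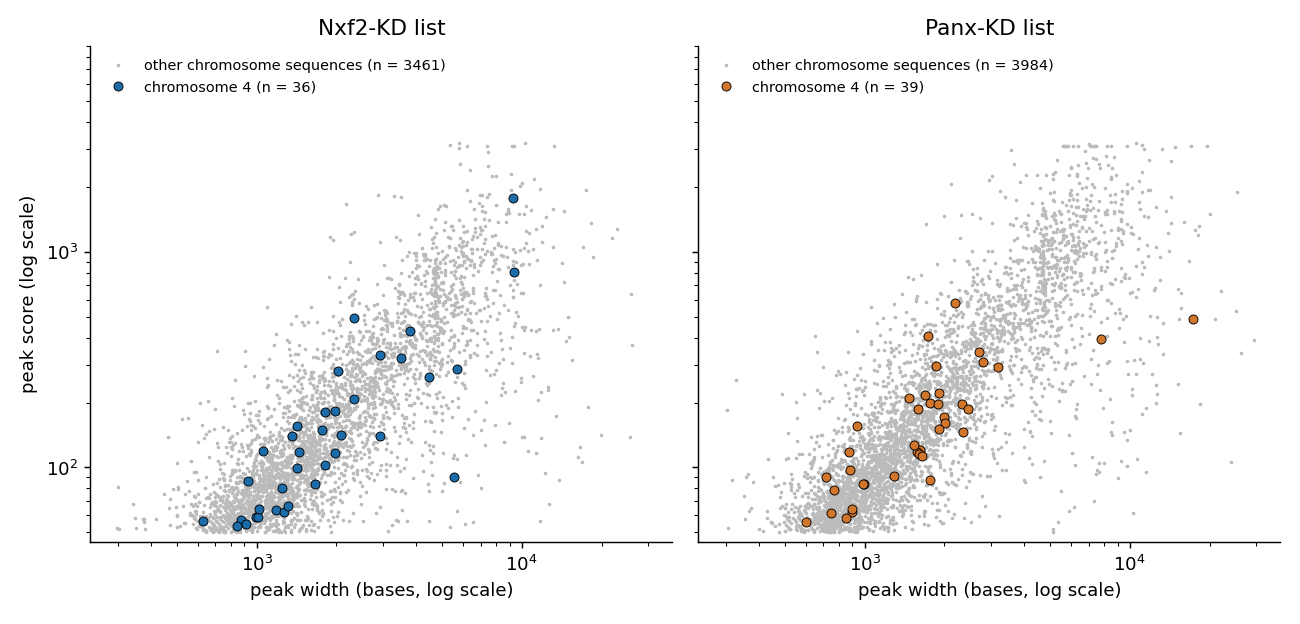
Peak score against peak width, both on log scales, for chromosome 4 (large points) and all other chromosome sequences (grey), in the Nxf2-KD list (left) and the Panx-KD list (right). Chromosome 4 peaks lie within the grey cloud, with the 5562-base Nxf2-KD peak (score 90.1) at its lower edge and the 17283-base Panx-KD peak (score 486) at its right.

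The widest peak of the fourth chromosome in each list, and the highest score in the Nxf2-KD list, lay near its centromere-side end. In the Nxf2-KD list the highest score was 1771 at chr4:4755-14009, a peak of 9255 bases that ranked 31 of 3497 by score. The next was 803 at chr4:15163-24505, the widest Nxf2-KD peak of the chromosome with 9343 bases. Between them lay a peak of 870 bases at chr4:14256-15125 with a score of 57.4. Only 27 peaks of the arms were at least as wide as each of the 2 large peaks.

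In the Panx-KD list the same stretch was divided at another place. A single peak of 17283 bases at chr4:4668-21950 spanned most of it, followed by a peak of 1733 bases at chr4:22121-23853. The wide peak ranked 14 of 4023 by width, and only 4 arm peaks were as wide or wider, but it ranked 775 by score, at 486. The second peak had a score of 408. Over the whole stretch, chr4:4668-24505, the 3 Nxf2-KD peaks covered 19468 bases, the 2 Panx-KD peaks covered 19016 bases and 18646 bases were in both. The lists thus held nearly the same bases here, divided into peaks of unlike number and width.

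The Panx-KD peak with the highest score on the chromosome lay elsewhere, at chr4:860356-862548, with 2193 bases and a score of 578. It ranked 649 of 4023 in its list, whereas the 3 highest Nxf2-KD scores of the chromosome ranked 31, 244 and 499 of 3497 in theirs. Its Nxf2-KD counterpart, chr4:860367-862396, had 2030 bases and the eighth highest Nxf2-KD score of the chromosome, 281. The left edges of the pair lay 11 bases apart and the right edges 152 bases.

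The remaining high scores of the Nxf2-KD list were 494 at chr4:815272-817612, 427 at chr4:1178241-1182023, 333 at chr4:1173959-1176870, 321 at chr4:781696-785187, 287 at chr4:809558-815244, 262 at chr4:35353-39838 and 207 at chr4:2141-4478. All of these shared bases with the Panx-KD list. The remaining high scores of the Panx-KD list were 394 at chr4:809787-817560, 342 at chr4:1842-4533, 307 at chr4:779994-782796, 297 at chr4:35343-37205, 293 at chr4:1173624-1176821, 221 at chr4:37720-39620 and 217 at chr4:150457-152152. These too all shared bases with the other list. On the arms, 99.7% of Nxf2-KD and 97.7% of Panx-KD peaks with a score of at least 200 were shared. The same places carried most of the high scores of both lists, with an exception in each. The Nxf2-KD peak of 427 met 3 Panx-KD peaks with scores of 83.8 to 113. The Panx-KD peak of 217 met an Nxf2-KD peak with a score of 98.9. The shared bases at chr4:809787-817560 came from 2 Nxf2-KD peaks and 1 wide Panx-KD peak of 7774 bases.

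Most chromosome 4 peaks of each list had a counterpart in the other. At least 1 base in common with the other list was found for 28 of 36 Nxf2-KD peaks, 77.8% (interval 60.8 to 89.9%), against 89.0% over the whole list. It was found for 29 of 39 Panx-KD peaks, 74.4% (57.9 to 87.0%), against 76.7% over the whole list. On the arms the shares were 87.6% and 72.4%, and on the heterochromatin sequences 91.5% and 84.0%. The Nxf2-KD share of the chromosome was the lowest of the 12 sequences, but its interval held the values of the whole list and of the arms, though not that of the heterochromatin sequences. In bases, 68439 were in both lists, 79.4% of the Nxf2-KD bases and 81.4% of the Panx-KD bases. They were 67.2% of the bases in either list, against 68.6% on the arms, 58.2% on X and 74.3% on the heterochromatin sequences.

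Peaks without a counterpart mostly had low scores, although some low-scoring peaks were shared. The 8 unshared Nxf2-KD peaks had scores of 54.5 to 90.1 (median 63.8), and the 28 shared ones 53.6 to 1771 (median 145). All 21 Nxf2-KD peaks with a score of at least 100 were shared, as were 7 of 15 below 100. On the arms, 96.2% of Nxf2-KD peaks from 100 to 200 and 99.7% of those from 200 up were shared, close to chromosome 4. On the arms 73.4% of Nxf2-KD peaks below a score of 100 were shared, at the upper end of the interval of 21.3 to 73.4% for chromosome 4. The 10 unshared Panx-KD peaks had scores of 56.1 to 156 (median 84.8), and the 29 shared ones 61.3 to 578 (median 187). Of the 12 Panx-KD peaks with a score of at least 200 all were shared, of the 15 from 100 to 200 there were 12, and of the 12 below 100 there were 5. The arms gave 97.7%, 80.2% and 43.9% in these ranges, close to chromosome 4.

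The 8 Nxf2-KD peaks without a base in the Panx-KD list were spread along the whole chromosome. The widest was chr4:97001-102562, with 5562 bases, a score of 90.1 and 32803 bases to the nearest Panx-KD peak. Among the 443 Nxf2-KD peaks at least 5000 bases wide the median score was 638, and only 12, this peak included, had a score of 90.1 or less. The peak at chr4:703007-703932 (926 bases, score 86.4) lay farthest from the other list, 75911 bases away. Peaks at chr4:200403-201585 (score 63.5) and chr4:979295-980210 (score 54.5) lay 25104 and 24183 bases away, and chr4:1081688-1082710 (score 64.2) lay 8357 bases away. Peaks at chr4:46901-47892 (score 58.8) and chr4:628349-629365 (score 59.1) had a Panx-KD peak 2014 and 1253 bases away. The eighth, chr4:1266528-1267842 (score 66.5), ended 698 bases before the last Panx-KD peak.

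The 10 Panx-KD peaks without a base in the Nxf2-KD list lay mostly toward the ends of the chromosome, where many shared peaks lay too. Of all 39 Panx-KD peaks, 16 lay in the first 100 kb and 3 in window 13. In the first 100 kb 62.5% were shared. The centromere-near stretches of the 5 arms gave 75.5% together, and that of X 57.5%. Of the 10 unshared peaks, 6 lay among the first 16 Panx-KD peaks, before chr4:61281. They were chr4:28071-28953 (score 97.0), chr4:31584-32870 (91.1), chr4:40041-40804 (78.4), chr4:42312-43206 (62.1), chr4:49907-50802 (64.2) and chr4:55638-56237 (56.1). Each was 600 to 1287 bases wide and lay 80 to 2473 bases from an Nxf2-KD peak. Near the far end lay chr4:1263679-1264548 (score 118) and chr4:1268541-1270077 (score 127), on either side of an Nxf2-KD peak that touched neither. The peak at chr4:623927-624778 (score 58.5) lay 349 bases from an Nxf2-KD peak.

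The exception was chr4:464587-465521, a Panx-KD peak of 935 bases with a score of 156. It had the highest score among the unshared Panx-KD peaks of the chromosome, and ranked 1943 of 4023 in its list. The nearest Nxf2-KD peak was 159606 bases away, and the nearest other Panx-KD peak 158405 bases. It lay alone between the 2 longest of the stretches between peaks given above. Whether reads of the Nxf2-KD samples were raised there without passing the peak caller's threshold was not analysed here.

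**Figure D4:**
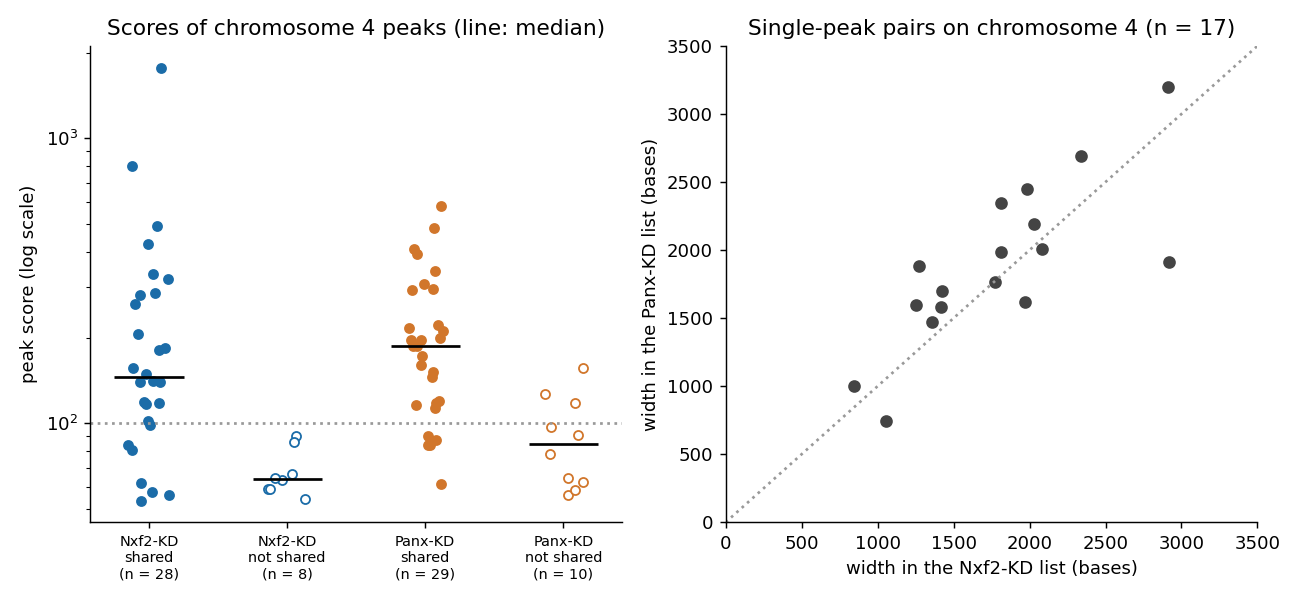
Left, score (log scale) of each chromosome 4 peak with (filled) and without (open) a base in the other list, the line marking the median and the dotted line a score of 100. Right, widths in both lists of the 17 single-peak pairs, the dotted line marking equality. Every unshared Nxf2-KD peak is under 100, and 12 of 17 pairs lie above the line.

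Overlaying both lists gave 41 separate regions on chromosome 4: 23 with peaks of both, 8 with Nxf2-KD peaks alone and 10 with Panx-KD peaks alone. Such regions were not counted on the other sequences, so whether this split is usual is not known. In 17 of the 23 a single peak of each list met a single peak of the other. Their widths had a Spearman correlation of 0.811 over 17 pairs. The Panx-KD peak was the wider in 12 of 17 (70.6%), with a median width ratio of 1.10, against 51.8% and a ratio of 1.003 over 1294 pairs on the arms. Edges of the chromosome 4 pairs lay a median of 132.5 bases apart (quartiles 33 and 299), with 13 of 34 edges within 100 bases. On the arms the median was 66 bases and 58.9% of edges were within 100 bases. The heterochromatin sequences lay between chromosome 4 and the arms in each of these values. Over 682 pairs there, 60.4% were wider in the Panx-KD list, with a ratio of 1.02. Their edges lay a median of 95 bases apart, with 51.5% within 100 bases. The 17 pairs of chromosome 4 are few beside these.

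The best matched pair was chr4:226702-228472 in the Nxf2-KD list (1771 bases, score 150) and chr4:226690-228458 in the Panx-KD list (1769 bases, score 200), with edges 12 and 14 bases apart. The largest edge difference was between chr4:785603-788523 (Nxf2-KD, 2921 bases) and chr4:785301-787212 (Panx-KD, 1912 bases), with right edges 1311 bases apart. The largest gain in width from the Nxf2-KD to the Panx-KD list was at chr4:953340-954609, from 1270 to 1885 bases, a ratio of 1.48. A pair at chr4:135356-136410 went the other way, from 1055 to 747 bases, a ratio of 0.708. Width therefore varied between the lists in both directions at matched places.

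With regions less than 10 kb apart taken as 1 island, the chromosome held 19 islands. Of these, 14 had peaks of both lists, 4 had Nxf2-KD peaks alone and 1 had a Panx-KD peak alone. Islands were not counted on the other sequences either. The first island, chr4:11-61281, was the largest. Its 61271 bases held 11 Nxf2-KD peaks, covering 58.0%, and 16 Panx-KD peaks, covering 65.2%. Of these peaks 10 in each list were shared, beside 87.6% (Nxf2-KD) and 72.4% (Panx-KD) of the arm peaks. The other islands were 916 to 12130 bases long.

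**Figure D5:**
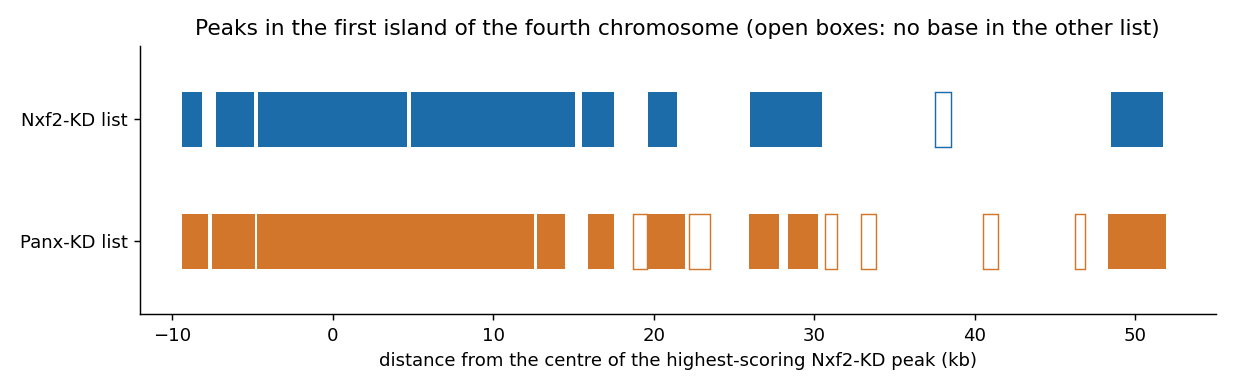
Peaks of the first island of chromosome 4 in the Nxf2-KD list (top) and the Panx-KD list (bottom), drawn to scale by distance in kb from the centre of the highest-scoring Nxf2-KD peak; filled boxes share a base with the other list and open boxes do not. The shortest gaps between neighbouring peaks are too narrow to be seen at this scale. The Panx-KD list has 6 open boxes and the Nxf2-KD list has 1, and the widest Panx-KD peak spans 2 Nxf2-KD peaks and part of another.

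After the first, the islands with the most covered bases included chr4:1169894-1182023, with 3 Nxf2-KD peaks (8676 bases) and 5 Panx-KD peaks (10047 bases), and chr4:779994-788523, with 3 peaks in each list (7865 and 7037 bases). In the first of these, the Nxf2-KD peak chr4:1178241-1182023 of 3783 bases met 3 Panx-KD peaks of 1649, 1758 and 990 bases. The island at chr4:809558-817612 showed the opposite division, with 2 Nxf2-KD peaks (8028 bases) against 1 Panx-KD peak (7774 bases). Together the first island and these 3 held 69.8% of the covered Nxf2-KD bases and 77.1% of the covered Panx-KD bases. Over the chromosome, the lists had unequal peak numbers in 4 of the 23 regions with peaks of both: 2 with more Nxf2-KD peaks and 2 with more Panx-KD peaks.

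The last island, chr4:1263679-1270077, was the sole island with peaks of both lists and no base in common. It held 1 Nxf2-KD peak of 1315 bases between Panx-KD peaks of 870 and 1537 bases. At the opposite end, the first peaks of the lists began at chr4:11 and chr4:20, at the very start of the assembled sequence, and shared 1242 bases. The Nxf2-KD peak there had 1251 bases and a score of 80.5, and the Panx-KD peak 1596 bases and a score of 187.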

How the data were processed

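H3K9me3 chromatin of Nxf2-KD and Panx-KD cells was sonicated to about 300 bases and sheared to about 200 for libraries, per the labels' protocols. The submitters' processing notes name cutadapt, Bowtie 1.0 and MACS 1.4.2 and the dm3 build, with no role or order. Peak lists were deposited with a score per peak and no read counts. How replicates were merged, and whether repeats or duplicate reads were filtered, is not given in the sources used here. Peak starts were read as 0-based and are printed 1-based. No dm3 sequence was used here, so a sequence's length was taken as its furthest peak end in either list. This is a lower limit that makes densities upper limits. Ratios of chromosome 4 to the arms depend on these lengths too. They are too high if chromosome 4 is cut short by the larger share, so ratios close to 1 could change side. Peaks counted as shared at 1 common base. Named by rule were the 10 highest scores and 5 widest peaks of each list, all unshared peaks and the 5 longest peak-free stretches; other peaks, the 100 kb windows, islands (gap under 10000 bases), single-peak pairs and score ranges were chosen after the values were seen. Members and comparisons were chosen with earlier results of these data known. Overlap functions were tested on 50 simulated list pairs with 0 mismatches. Python 3.11.15, numpy 2.4.6 and scipy 1.17.1 were used. Alternatives were score thresholds (100, the list median), joining of peaks under 1000 bases apart, other overlaps and other lengths. Element tables were not used, since they hold no genome positions.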

Additional observations from a re-analysis of the deposited data

How the results depend on the processing

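Of 76 alternative values for 17 results, 56 stayed within an interval set around the reported value and 20 moved out of it. The interval was Clopper-Pearson for shares of peaks and came from ranked values for medians. For all other results the Poisson interval of the peak count was scaled onto the value. For covered bases and ratios this is a rough yardstick only. With scores of at least 100, peaks per Mb on chromosome 4 were 16.5 (Nxf2-KD) and 21.3 (Panx-KD). Of the Nxf2-KD peaks, 95.2% were then shared (arms 90.3%), the Panx-KD list being held to the same score here. At or above the list median, peaks per Mb were 13.4 and 15.7, Nxf2-KD peaks covered 4.65%, median widths were 2341 and 1949.5 bases and median scores 262 and 214. These settings keep fewer peaks by construction. With near peaks joined, the Panx-KD density was 18.9. Without the first 100 kb, the Panx-KD density was 19.7, and 0.937 times that of the whole arms. The covered share was then 4.07% and 3.77%, or 1.04 and 0.849 times that of the whole arms. With a gap under 1000 bases counted as shared, 87.2% of Panx-KD peaks were (arms 82.2%). Centromere-near stretches of 2 times the length made the ratio of chromosome 4 to them 0.379 and 0.313. The ratios of chromosome 4 to the arms stayed above 1 under each score threshold and with joined peaks, in both lists. Length from first to last peak differs from the main length by a few bases on chromosome 4 and is no check of the length used. Its values are counted among the 56. No paired analysis was possible because each knockdown has a single merged list. No replicate could be left out for the same reason. Depth is unknown, so a peak missing from a list is not shown to be absent.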
